A study of Mus musculus with 6 samples.

Results

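The 10 neuropeptide precursor genes Trh, Tac1, Nmb, Pomc, Penk, Gal, Nts, Cck, Pmch and Cartpt were followed in RNA from serotonin neurons of the mouse midbrain and brainstem. They were chosen by gene symbol: every probe set annotated with that symbol alone was taken, which gave 12 probe sets of the 45101 on the array, for 10 of the 18193 genes with such a probe set. The method was translating ribosome affinity purification (TRAP) followed by Affymetrix expression arrays. TRAP pulls tagged ribosomes and their mRNA out of a tissue lysate. The IP group (3 samples) held the ribosome-bound RNA, and the unbound group (3 samples) what remained of the lysate's RNA and serves as the whole-tissue control. All mice, in both groups, carried the Slc6a4 JD60 bacterial artificial chromosome transgene on a mixed FVB and c57/bl6j background, were 6 to 12 weeks old and of either sex, and were pooled by 5 per sample. Tissue was everything behind the junction of pons and hypothalamus, superior colliculi included and cerebellum removed. What the tagged ribosomes label therefore follows the Slc6a4 regulatory region, and the groups differ in cell type and in ribosome binding at once, which cannot be told apart here. Nor can fewer cells of a type be told apart from less RNA per cell.

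Neuropeptides are made as larger precursor proteins, which convertases cut in the regulated secretory pathway, and they are released from dense-core vesicles to act mostly on G-protein-coupled receptors. Neurons that use a classical transmitter commonly make peptides beside it. Serotonin neurons of the raphe are a textbook case, since those of the medulla have long been known to hold thyrotropin-releasing hormone and substance P together with serotonin.

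Slc6a4, the serotonin transporter gene whose regulatory region drives the transgene, lay at 14.10 to 14.33 on the 3 IP arrays and 8.99 to 9.13 on the 3 unbound arrays, in log2 expression. All 11 measured markers of serotonin neurons were higher in IP (with the poly-A scaling described below, 7 of 9 tested, Gata3 and Htr1a being at -0.04 and -0.27). All 6 tested catecholaminergic, all 6 GABAergic and glycinergic and all 3 glutamatergic markers were lower, as were all 10 astrocyte, all 9 oligodendrocyte and 5 of 6 microglial markers, Aif1 being the exception. With quantile normalisation or either median scaling, described below, 5 of 7 catecholaminergic markers were lower (Dbh lost, Pnmt positive and not called). Medians over all probe sets left 4 of 6 GABAergic and glycinergic, 7 of 9 oligodendrocyte and 9 of 10 astrocyte markers lower. Medians over expressed probe sets left 8 of 9 oligodendrocyte and 9 of 10 astrocyte markers lower. Of 2 tested cholinergic markers Isl1 was lower and Prph was not called. The detection filter described below fixed the direction of 2 of the 11 serotonin, 2 of 6 catecholaminergic and 1 of 6 GABAergic and glycinergic markers. It also fixed that of 1 of 3 glutamatergic, 5 of 10 astrocyte, 1 of 9 oligodendrocyte and 4 of 6 microglial markers (Aif1 among them), and of Isl1. Pearson's r across probe sets was at least 0.994 between arrays of a group, and 0.924 to 0.932 across groups. All values below are log2 expression, with the IP arrays shifted so that the biotin hybridisation controls match those of the unbound arrays. The detection limit was set at a log2 value of 5, and a gene had to reach it on 3 or more of the 6 arrays to be tested. It is described as risen or fallen where limma's Benjamini-Hochberg adjusted p was under 0.05 and the change was at least 2-fold. By that rule 51.6% of the 10581 tested genes changed, 10.4% being higher and 41.1% lower in IP, with a median log2 change of -0.65.

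Of the 10 precursors, all tested, 4 were higher in IP (Trh, Tac1, Nmb and Pomc), 5 were lower (Nts, Pmch, Cck, Cartpt and Penk) and Gal was not called. Their median log2 change was -0.12. With the IP arrays scaled to the poly-A spike controls instead, Trh alone was higher and 7 of the 9 tested precursors were lower. Those spike controls read 2.91 higher on the IP arrays than on the unbound ones, on the log2 scale. No precursor had IP and unbound arrays that overlapped, 5 lying above and 5 below. Non-overlap was also found for 83.0% of all tested genes (23.9% above and 59.1% below), so separation of the arrays by itself says little about these genes. For Trh, Nmb, Nts and Pmch every array of the lower group lay under the detection limit, so the filter fixed the direction of these 4. The other 6 were at the limit or above it on every array.

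**Figure D1:**
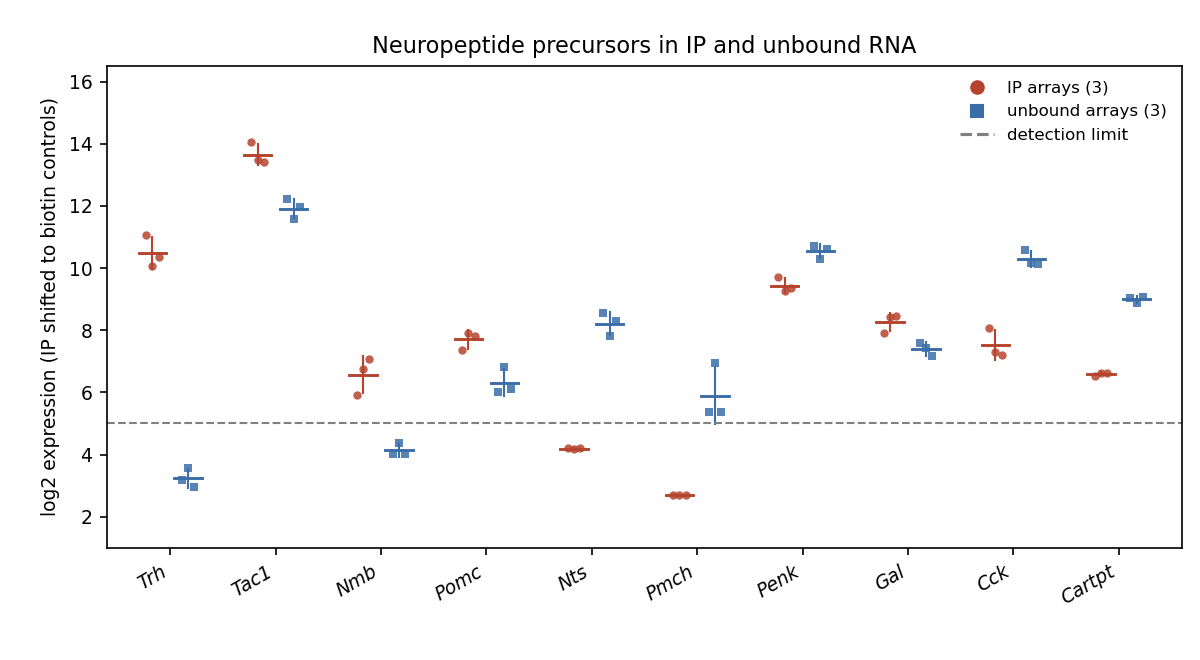
Log2 expression of the 10 precursor genes (x axis) on each of 3 IP arrays (circles) and 3 unbound arrays (squares), with group means (horizontal bars) and SD (vertical bars); the dashed line is the detection limit of 5. Trh goes from under the limit in unbound RNA to 10.49 in IP, while Nts and Pmch lie under it on every IP array.

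The stretches of DNA just before the start sites are shown for 2 precursors that rose (Trh and Tac1) and 2 that fell (Nts and Cck), so that genes of opposite direction can be read side by side. They are the 250 bases upstream, 5′ to 3′ on the gene's strand, from RefSeq (GRCm38.p6), which held such an entry for 9 of the 10 precursors, all but Penk. Capitals mark the half-site of the cAMP response element, TGACG or its reverse CGTCA, and the GATA-type motif AGATAA, searched on both strands with its reverse TTATCT. Trh is shown at chr6:92244651-92244900 (- strand), Tac1 at chr6:7554811-7555060 (+ strand), Nts at chr10:102490419-102490668 (- strand) and Cck at chr9:121495695-121495944 (- strand).
Trh: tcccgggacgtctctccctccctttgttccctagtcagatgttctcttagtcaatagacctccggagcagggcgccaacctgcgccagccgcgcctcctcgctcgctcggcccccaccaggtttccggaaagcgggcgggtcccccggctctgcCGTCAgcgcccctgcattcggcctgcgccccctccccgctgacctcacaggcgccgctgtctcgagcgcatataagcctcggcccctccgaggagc
Tac1: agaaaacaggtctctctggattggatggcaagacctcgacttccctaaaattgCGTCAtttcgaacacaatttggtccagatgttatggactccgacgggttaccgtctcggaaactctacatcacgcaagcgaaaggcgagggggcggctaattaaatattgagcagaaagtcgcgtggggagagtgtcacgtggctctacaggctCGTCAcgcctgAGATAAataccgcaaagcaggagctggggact
Nts: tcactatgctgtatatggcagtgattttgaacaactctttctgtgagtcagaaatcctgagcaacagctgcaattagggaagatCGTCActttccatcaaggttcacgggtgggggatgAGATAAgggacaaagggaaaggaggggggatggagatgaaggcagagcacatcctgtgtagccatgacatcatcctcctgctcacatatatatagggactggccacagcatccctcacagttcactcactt
Cck: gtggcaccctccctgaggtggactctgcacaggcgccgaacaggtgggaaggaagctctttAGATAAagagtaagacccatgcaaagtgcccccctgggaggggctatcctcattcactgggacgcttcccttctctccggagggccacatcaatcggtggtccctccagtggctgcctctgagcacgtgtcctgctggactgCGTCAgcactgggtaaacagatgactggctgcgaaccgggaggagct
All 4 printed stretches hold the half-site. It begins 96 bases before the start in Trh, 197 and 43 before it in Tac1, 166 in Nts and 47 in Cck. Over the 9 precursors it occurs in 2 of 4 that rose, in 3 of 4 that fell (Cartpt being the third) and not in Gal. Among all 32851 promoter entries of the same length, 17.8% hold it. The full palindrome TGACGTCA, which contains the half-site on both strands, was found in Cartpt alone, against 1.55% of all entries. The GATA-type motif occurs in Tac1, Nts, Pmch and Cck (1 precursor that rose and 3 that fell), against 9.99% of all entries. These are matches of letters and not sites of binding, and neither motif is on 1 side only of the division into risen and fallen genes.

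Trh encodes the precursor of thyrotropin-releasing hormone, a tripeptide that drives the pituitary-thyroid axis and also acts as a transmitter in the brainstem and spinal cord. Its log2 expression was 11.06, 10.05 and 10.35 on the 3 IP arrays and 3.17, 3.57 and 2.95 on the 3 unbound arrays. Every IP array was thus well above the detection limit and every unbound array below it. Counting the unbound arrays at the limit, Trh was at least 44.8-fold higher in IP. The fitted log2 change of 7.26 ± 0.30 (SE, limma adjusted p = 3.67e-06) rests on unbound values near the bottom of the scale. It was the only precursor that stayed higher under all 7 scalings between groups, from 4.58 with the poly-A controls to 8.29 with array medians over all probe sets, Nmb not being tested under the poly-A scaling. The 3 IP arrays spanned 1.01 on the log2 scale, with SD 0.52 against a median of 0.11 for all tested genes in IP. Replicate 1 was the highest of them.

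The receptor gene Trhr read 2.93 on each of the 3 IP arrays and 7.41, 6.95 and 7.20 on the unbound arrays, at least 4.55-fold lower in IP. Every IP array was under the limit, so Trhr was tested only through its unbound arrays and the filter fixed its direction. A further receptor gene, Trhr2, lay under the limit on all 6 arrays (highest value 4.49). Trhde, whose product is the ectoenzyme that inactivates thyrotropin-releasing hormone outside the cell, fell from 7.14 ± 0.51 to 5.65 ± 0.30 (SD, n = 3 each, limma adjusted p = 0.00347), a call lost with quantile normalisation (-0.38) and with medians over all (-0.46) or expressed probe sets (-0.75). Qpct, the glutaminyl cyclase that forms the pyroglutamate at the start of the peptide, rose from 7.09 ± 0.09 to 9.03 ± 0.34 (SD, n = 3 each, limma adjusted p = 0.000113) and was at -0.74, not called, under the poly-A scaling.

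Tac1, the precursor of substance P and neurokinin A, was bright in both fractions. It read 14.05, 13.48 and 13.42 in IP and 12.21, 11.57 and 11.96 in unbound RNA. All IP arrays lay above all unbound arrays, and the difference was 3.32-fold (log2 change 1.73 ± 0.23 SE, limma adjusted p = 0.000661). That change stood at the 96.4th percentile of all tested genes. Within replicate numbers the IP minus unbound difference was 1.84, 1.91 and 1.45, so the differences within pairs spread less than the arrays of a group. Under the poly-A scaling Tac1 turned to -0.94 and was not called, and under the other 6 scalings it was higher at 1.61 to 2.76. A further Tac1 probe set read 1.98 on every IP array and 2.17 to 2.20 on the unbound arrays, the bottom of each group's scale, and carries no measurement. Averaging both probe sets lowers the change to 0.77, which was not called.

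Of the tachykinin receptor genes, Tacr3 (neurokinin B receptor) went from 10.23 ± 0.19 in unbound RNA to 9.09 ± 0.01 in IP (SD, n = 3 each). It fell by 1.14 on the log2 scale (limma, adjusted p = 0.000158). The call was lost when the groups were not scaled (-0.91), when all 6 arrays were quantile-normalised (-0.67) and with either median (-0.40 and -0.11). Its probe set is of the _x_at type, which Affymetrix marks as possibly matching other transcripts. Tacr1, the receptor preferred by substance P, and Tacr2 were under the limit on all 6 arrays, at 2.19 or less.

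Nmb encodes neuromedin B, a bombesin-like peptide. It gave 5.92, 6.74 and 7.06 in IP against 4.02, 4.36 and 4.02 in unbound RNA. All 3 IP values were above the limit and all 3 unbound values below it, a rise of at least 2.97-fold. For Nmb the fitted log2 change, which uses the unbound values under the limit, was 2.44 ± 0.30 SE (limma, adjusted p = 0.000448). Its IP arrays had the widest spread of the 10 genes, with SD 0.59, replicate 1 being the lowest. The rise held under the 5 other scalings in which Nmb was tested, at 2.44 to 3.67. Nmbr, its receptor gene, was under the limit everywhere, reading 1.98 in IP while unbound values ran from 2.40 to 3.19.

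With the biotin scaling the opioid precursors Pomc and Penk were called in opposite directions, while under the poly-A scaling both were lower. Pomc, which is cut into corticotropin, melanocortins and beta-endorphin, was measured by a single probe set at 7.37, 7.93 and 7.81 in IP and 6.02, 6.82 and 6.09 in unbound RNA. The IP arrays were all higher, by 2.62-fold (limma, log2 change 1.39 ± 0.26 SE, adjusted p = 0.00300). This probe set, too, is of the _x_at type. The other Pomc probe set, without that mark, read 3.33 on all 3 IP arrays and 3.62, 4.04 and 3.86 on the unbound arrays, all 6 under the limit, so the rise of Pomc rests on the _x_at probe set alone. With the mean of both, the change was 0.44 and not called, and under the poly-A scaling the _x_at probe set was lower at -1.29.

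Pomc is best known from the hypothalamus and the pituitary, though not confined to them, and markers of both were read beside it. Of 14 hypothalamic markers on the array, 13 were under the limit on every IP array, Hcrt, Avp and Oxt among them (1.98 in IP and 2.96 or less in unbound RNA), and Ghrh was just above it. On all 6 arrays 11 of the 14 were under the limit, and in unbound RNA only Otp and Six3 were above it. Otp, a transcription factor gene, read 7.60, 7.25 and 7.37 there and Six3, likewise, 6.44, 6.44 and 6.02, both under the limit on every IP array. The summed level of all 14 markers, as log2, was 6.86 to 6.87 on the IP arrays against 8.18 to 8.41 on the unbound ones. On the IP arrays that sum holds 13 genes under the limit, so it measures no level of these markers. All 9 pituitary markers were under the limit on every IP array, and 7 of them on every unbound array as well. In unbound RNA Gh, the growth hormone gene, read 7.78, 3.95 and 6.95 and Prl, the prolactin gene, 6.38, 3.86 and 2.19. The source of the Pomc signal was not tested.

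Penk, the enkephalin precursor, read 9.71, 9.26 and 9.35 in IP and 10.72, 10.30 and 10.61 in unbound RNA, 2.16-fold lower in IP without overlap (limma, log2 change -1.11 ± 0.17 SE, adjusted p = 0.00112). Among the 9 calls it changed under the most alternatives. It stood at the 38.6th percentile of all changes, only 0.46 below the median of tested genes. It was lost without IP replicate 2 (-0.89) and without unbound replicate 1 (-0.96). No scaling gave -0.87, quantile normalisation -0.69 and the median scalings -0.37 and -0.08, none of them called. The genes of receptors for their peptides, the opioid receptor genes Oprm1, Oprd1 and Oprk1, and the melanocortin receptor genes Mc1r, Mc3r and Mc5r were under the limit on all 6 arrays.

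Gal, the precursor of galanin, a peptide that inhibits many monoamine neurons, was 7.91, 8.42 and 8.45 in IP and 7.59, 7.43 and 7.16 in unbound RNA. The IP arrays all lay above the unbound ones, but the difference of 1.82-fold (log2 change 0.87, 95% interval 0.41 to 1.33, limma adjusted p = 0.00580) was under the 2-fold rule. Its size varied between replicates and its sign with the scaling. Pair 1 differed by 0.32 and pair 3 by 1.30. Leaving out unbound replicate 1 brought it over the rule, at 1.02, as did no scaling (1.10), quantile normalisation (1.70) and the median scalings (1.61 and 1.90). With the poly-A controls Gal was called lower, at -1.81. Galr1 and Galr2 were under the limit on all 6 arrays.

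**Figure D2:**
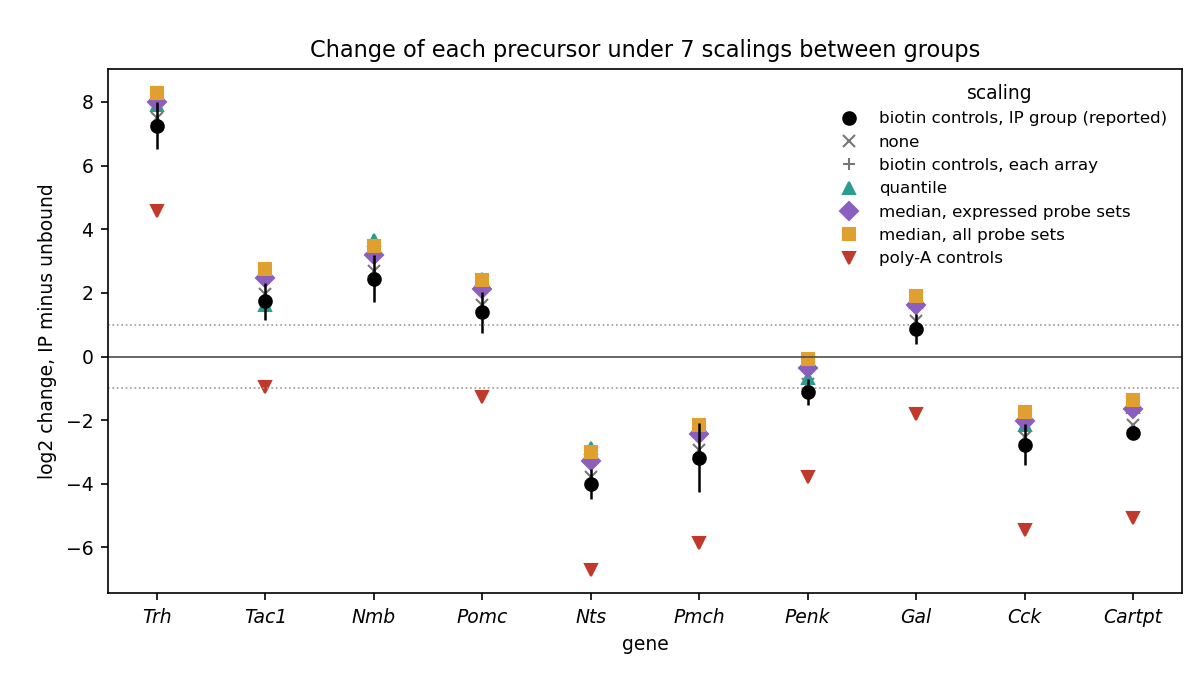
Log2 change (IP minus unbound, y axis) of each precursor under 7 ways of scaling the groups against each other; black circles are the reported values with their 95% interval, and dotted lines mark a 2-fold change. Trh, Nmb, Nts, Pmch, Penk, Cck and Cartpt keep their side of the zero line under every scaling that tested them. Penk comes as near to it as -0.08, with medians over all probe sets. Tac1, Pomc and Gal cross the line with the poly-A controls, where Nmb was not tested.

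Nts, the precursor of neurotensin and neuromedin N, had the largest fitted fall of the 10. It read 4.21, 4.17 and 4.21 on the IP arrays, all under the limit, and 8.55, 7.80 and 8.29 on the unbound arrays. Nts was at least 9.27-fold lower in IP. Its fitted log2 change, which uses the IP values under the limit, was -4.02 (limma, adjusted p = 6.74e-06). It was negative under every scaling, from -6.70 to -2.86. Its receptor genes were lower too. Ntsr2 fell from 10.49 ± 0.14 to 7.71 ± 0.20 (SD, n = 3 each, limma adjusted p = 6.32e-06), and Sort1, the sorting receptor that also binds neurotensin, fell from 9.44 ± 0.10 to 8.35 ± 0.05 (SD, n = 3 each, limma adjusted p = 5.25e-05). The Sort1 call was lost without scaling (-0.86), with quantile normalisation (-0.47) and with the median scalings (-0.35 and -0.06). Ntsr1 was under the limit, reading 2.06 in IP while unbound values ran from 4.77 to 4.99.

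Cck, the cholecystokinin precursor, was 8.06, 7.30 and 7.19 in IP and 10.57, 10.15 and 10.13 in unbound RNA. It was measured on all 6 arrays and fell 6.82-fold without overlap (limma, log2 change -2.77 ± 0.26 SE, adjusted p = 0.000132). Of its receptor genes, Cckar read 7.82, 7.65 and 7.60 in IP against 4.46, 4.45 and 4.45 in unbound RNA, at least 6.46-fold higher. Cckbr read 3.93, 3.97 and 3.93 in IP against 7.24, 7.20 and 7.30, at least 4.74-fold lower. Each passed the filter only through the group where it was high, so these directions were fixed by the filter.

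**Figure D3:**
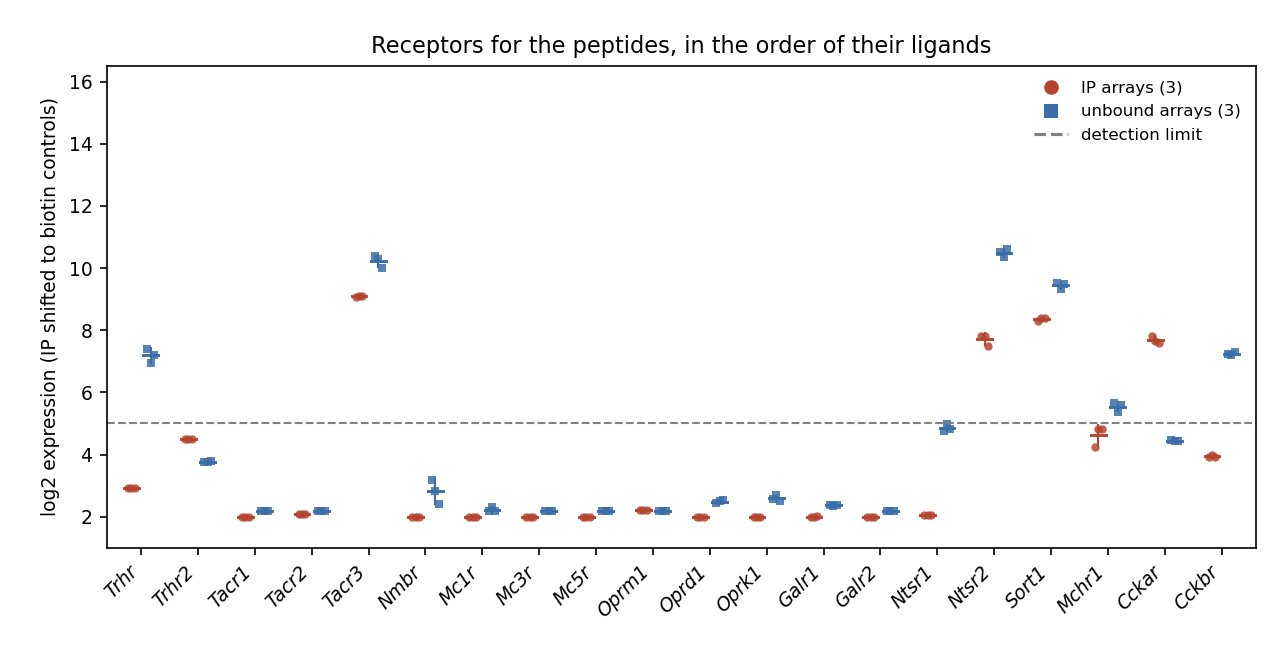
Log2 expression of 20 receptor genes for the peptides, in the order of their ligands, on 3 IP arrays (circles) and 3 unbound arrays (squares) with means and SD; the dashed line is the detection limit of 5. Cckar is the 1 receptor gene called higher in IP, and 13 of the 20 lie under the limit on every array.

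Of the 20 receptor genes on the array, 7 were tested, 1 was higher and 5 were lower, with a median log2 change of -1.14 against -0.65 for all tested genes. The filter fixed the direction of 4 of these 7 (Trhr, Mchr1, Cckar and Cckbr), so neither the count nor the median says how receptor genes moved. The count was 2 higher and 3 lower with quantile normalisation or either median, and 0 and 6 under the poly-A scaling. The receptor gene tested but not called was Mchr1, for melanin-concentrating hormone, with an unbound mean of 5.54 ± 0.14 and an IP mean of 4.63 ± 0.32 (SD, n = 3 each), near the limit throughout and read by an _x_at probe set.

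The precursors Pmch and Cartpt are best known from hypothalamic neurons that control feeding. Pmch, the precursor of melanin-concentrating hormone, read 2.71 on all 3 IP arrays and 5.36, 6.96 and 5.36 on the unbound arrays. It was at least 1.86-fold lower in IP, a bound short of the 2-fold rule. The call rests on the fitted log2 change of -3.18 (limma, adjusted p = 0.000770), which uses the IP values under the limit. All 3 IP values were identical and 2 of the unbound values were equal, so the IP SD of 0 gives no usable measure of spread. Unbound replicate 2 stood 1.60 above the others. The fall was called without it as well, but the values left were then identical within each group. That call thus had no spread of its own to rest on and is no check of the fall. Hcrt, the marker of the neighbouring orexin neurons, read 2.68, 2.96 and 2.68 on the same unbound arrays, under the limit. Of the 14 hypothalamic markers on the array, only Otp and Six3 were above the limit there, as given beside Pomc. The source of the Pmch signal in unbound RNA was not tested. Pmch was lower under every scaling that tested it, quantile normalisation leaving it untested.

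Cartpt, which encodes the CART peptides, had the smallest SE of the 10. It gave 6.54, 6.63 and 6.62 in IP and 9.04, 8.87 and 9.06 in unbound RNA, 5.25-fold lower (limma, log2 change -2.39 ± 0.09 SE, adjusted p = 2.15e-06). The groups were far apart relative to their spread, and the fall was called under all 7 scalings, at -1.36 to -5.07.

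The precursors that fell did so beside most tested markers of other neurons and of glia, and 41.1% of all tested genes were lower. The median log2 change was -3.61 for astrocyte, -3.37 for oligodendrocyte and -3.61 for microglial markers. It was -3.30 for catecholaminergic, -2.80 for GABAergic and glycinergic and -3.99 for glutamatergic markers. The summed level of 9 catecholaminergic markers, as log2, was 9.43 to 9.68 on the IP arrays against 12.98 to 13.29 on the unbound ones. That of 6 GABAergic and glycinergic markers was 11.51 to 12.01 against 14.18 to 14.49, and that of 4 glutamatergic markers 9.13 to 9.69 against 12.79 to 13.27. On every IP array 5 of the catecholaminergic, 1 of the GABAergic and glycinergic and 2 of the glutamatergic markers were under the limit. The IP sums therefore rest on the remaining genes. For serotonin neurons the order was the reverse, at 16.92 to 17.15 against 12.00 to 12.28. The part of these cell types in the falls was not tested.

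The precursors also varied among replicates. Of the 10, 7 had an IP SD above the median of tested genes and 9 had an unbound SD above it (medians 0.11 and 0.18). Among the 8 at the limit or above on every IP array, IP replicate 1 was the highest for 4 (Trh, Tac1, Penk and Cck) and the lowest for the other 4 (Nmb, Pomc, Gal and Cartpt). For Tac1, Penk and Cck replicate 1 was the highest in both fractions. Without IP replicate 1 the calls numbered 4 higher and 5 lower, as with all arrays.

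Most other neuropeptide precursors on the array were under the detection limit. Of 39 on the array, 22 were under the limit on every array and 15 were tested, of which 2 were higher and 8 lower, with a median log2 change of -1.30 against -0.65 for all tested genes. Among all tested genes 10.4% were higher and 41.1% lower, and the filter fixed the direction of 5 of the 15 (Ghrh, Nppc, Apln, Adm and Pnoc), so nothing is read from these counts. The 2 were Nucb2, the nesfatin precursor, from 7.89 ± 0.28 to 9.24 ± 0.17 (SD, n = 3 each, limma adjusted p = 0.000482), and Ghrh, the growth hormone-releasing hormone gene, which at 5.24 ± 0.02 in IP was only just over the limit and at least 1.18-fold higher. Of those at the limit or above on all 6 arrays, Vip, Calcb and Npy fell the most. Vip fell 6.60-fold, from 8.45 ± 0.14 to 5.72 ± 0.55 (SD, n = 3 each, limma adjusted p = 0.000177), Calcb 5.60-fold and Npy 5.18-fold. Crh fell by 1.30 on the log2 scale, a call lost with either median scaling. Apln was at least 2.78-fold lower and Nppc, at 5.17 in unbound RNA, at least 1.13-fold. Adm and Pnoc were the others that were called lower. Grp (0.20), Vgf (0.13) and Npb (0.12) were not called, and their IP and unbound arrays overlapped. The split moved with the scaling, to 7 higher and 5 lower with medians over all probe sets, 5 and 5 with quantile normalisation, 4 and 7 with medians over expressed probe sets, and 0 and 13 with the poly-A controls.

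**Figure D4:**
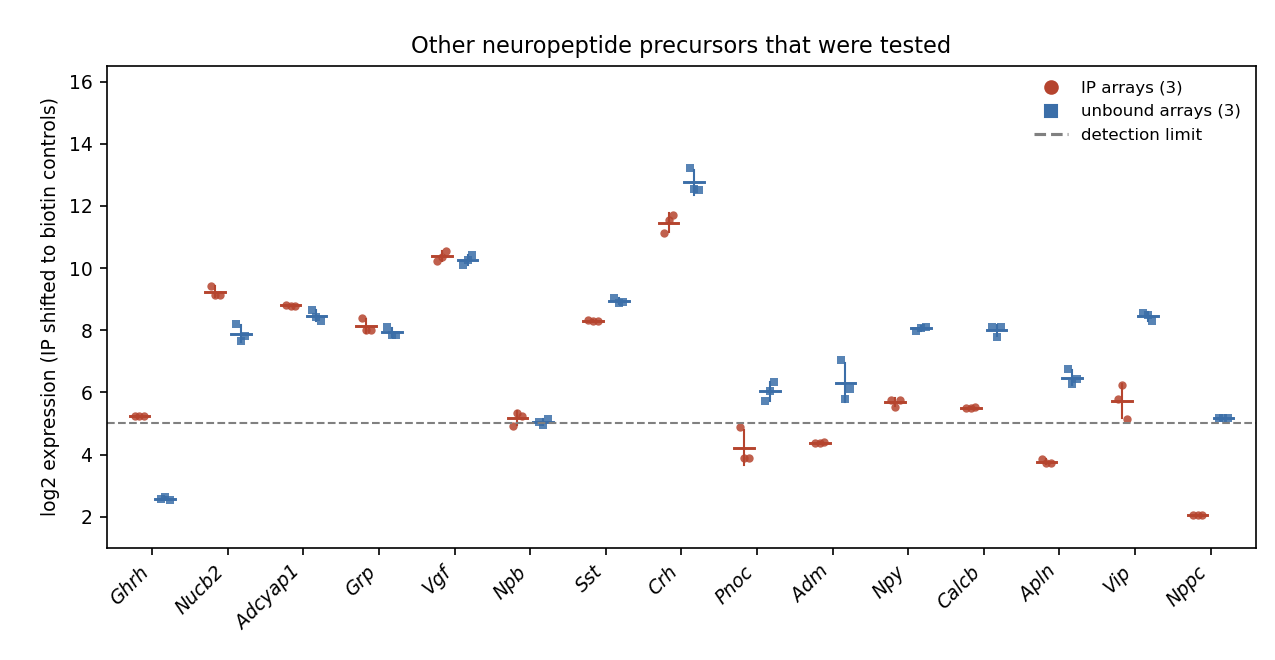
Log2 expression of the 15 other neuropeptide precursors that were tested, ordered by their change, on 3 IP arrays (circles) and 3 unbound arrays (squares) with means and SD; the dashed line is the detection limit of 5. Nucb2 is higher in IP with all arrays above the limit (lower, at -1.33, under the poly-A scaling), Ghrh reaches 5.24, and Vip and Npy are lower.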

How the data were processed

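RNA of 3 IP and 3 unbound samples, 20 ng each, was amplified in 2 cycles and hybridised to 6 Affymetrix arrays, as the labels' protocols say. The authors made the deposited log2 values with GCRMA within each group, per the series' design text and the submitters' processing notes; no version is given in the sources used here. The groups' level against each other is therefore not set by the deposited values, and -0.23 was added to each IP value to equalise 18 biotin control probe sets. Array number limits the precision.

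Genes were named from the platform annotation, and each was read by its brightest probe set with 1 symbol. The test was limma 3.58.1 (lmFit, eBayes, R 4.3.3) on group, two-sided, over 10581 genes, and was tested on simulated data. A fold of at least a value counts dim arrays at the limit of 5. Members, lists and tests were chosen with earlier results of these data known. The genes named are all members, all receptor genes on the array, and on each other list the called genes of largest change. Other precursors, processing genes and markers were named after their values were seen.

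Each unbound sample comes from the same pool as the IP sample of its number, per the labels, and their deviations correlated at 0.27, 0.16 and 0.10; IP replicate 3 correlated more, at 0.21, with unbound replicate 2. The alternatives were other scalings, filters, probe set rules, call rules and variance models, the pairs as a block, and leaving out each array.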

Additional observations from a re-analysis of the deposited data

How the results depend on the processing

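The groups were normalised separately, and so the scaling between them decides more than any other choice tried. Of 196 single-gene values under alternatives, 176 kept both direction and call, and Trh, Nmb, Nts, Pmch, Cck and Cartpt kept theirs wherever tested. The poly-A scaling turned Tac1 (-0.94), Pomc (-1.29) and Gal (-1.81) negative and gave 1 precursor higher; of all tested genes 35 were then higher and 9992 lower, and of the other precursors 0 and 13. Quantile normalisation left 3 precursors lower (Penk not called, Pmch not tested), with 2507 and 2479 of all genes and 5 and 5 other precursors; the share of calls that were lower fell from 79.8% to 49.7%. Medians over all probe sets gave 3671 and 2203 genes (37.5% lower) and 7 and 5 other precursors, medians over expressed probe sets 2769 and 2699 genes (49.4% lower) and 4 other precursors higher, and no scaling 71.4% lower. The median log2 change of tested genes was -0.41, 0.04, 0.12, 0.42 and -3.37 with no scaling, quantile, expressed-median, all-probe-set-median and poly-A scaling. Each array's own biotin controls left 1 other precursor higher. The mean of probe sets left 2 precursors higher (Tac1 0.77 and Pomc 0.44 lost), as did a 4-fold limit, which gave 275 and 2268 of all genes and 1 and 5 other precursors. Testing every probe set by itself gave 1748 and 7233 calls, no fold limit 2330 genes higher, and the filter at log2 7 left 1 and 4 other precursors. With no filter, 3 other precursors were higher and 12 lower. The causes of these shifts were not tested, beyond the genes or arrays each setting leaves out.

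With the replicate pairs as a block, 4 precursors were higher and 5 lower, with 1108 and 4360 of all genes, and no call of a precursor changed. Leaving out each array gave 4 to 5 precursors higher and 4 to 5 lower, 934 to 1326 genes higher and 4001 to 4608 lower, and 2 and 8 other precursors throughout. Values under the limit have no order, which leaves the size of the changes of Trh, Nmb, Nts and Pmch as bounds.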

Other observations

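Genes of precursor processing and peptide breakdown, a group described only for thyrotropin-releasing hormone above, moved both ways. Of 19 on the array 16 were tested, and 4 were higher and 5 lower in IP. Among all tested genes 10.4% were higher and 41.1% lower. The median log2 change of the 16 was 0.28 against -0.65 for all tested genes. The counts were 5 and 3 without scaling, 8 and 2 under quantile normalisation, and 9 and 1 with medians over all probe sets. They were 8 and 1 with medians over expressed probe sets, and 1 and 13 with the poly-A controls. Pcsk1, the prohormone convertase that makes the first cuts in Pomc, rose from 5.10 ± 0.03 to 9.30 ± 0.31 (SD, n = 3 each, limma adjusted p = 2.77e-06) and was higher under all 7 scalings, by 1.52 to 5.28 on the log2 scale. Ctsl, a protease that also cuts enkephalin precursors, rose from 11.01 ± 0.23 to 13.02 ± 0.19 (SD, n = 3 each, limma adjusted p = 4.90e-05), and Pcsk1n, which encodes an inhibitor of that convertase, rose by 1.36; under the poly-A scaling they were at -0.67 and -1.32. Cpe, the carboxypeptidase that trims the cut peptides, had an unbound mean of 14.81 ± 0.13 and an IP mean of 14.69 ± 0.17 (SD, n = 3 each), with overlapping arrays and adjusted p = 0.393 by limma.

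The genes called lower on this list were Mme, Nln, Prep, Cpd and Trhde, while Thop1 (-0.84) and Pgpep1 (0.65), which encode other peptidases, were not called, and Prcp and Dpp4 were not tested. Mme, or neprilysin, which degrades enkephalins and substance P, read 2.51, 2.51 and 2.55 in IP and 8.20, 7.53 and 7.70 in unbound RNA, at least 7.02-fold lower. It was tested only through its unbound arrays, so the filter fixed its direction. Nln, or neurolysin, a neurotensin-cutting enzyme, fell by 1.07, and Prep, the prolyl endopeptidase, by 1.14, but both calls were lost without scaling (-0.84 and -0.91) and with medians over expressed (-0.33 and -0.40) or all probe sets (-0.04 and -0.11). Quantile normalisation left Nln at -0.12 and turned Prep to 0.15, neither called.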
